A study of Mus musculus with 8 samples.

Results

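The genes described here encode the calcium switch of the sarcomere and the filament it sits on: the troponin T genes Tnnt1, Tnnt2 and Tnnt3, the troponin I genes Tnni1, Tnni2 and Tnni3, troponin C (Tnnc1), tropomyosin (Tpm1) and the sarcomeric actins Actc1 and Acta1. They are 10 of the 55291 gene symbols in the count table and were taken by symbol. The RNA came from the ventricles of E10.5 mouse embryos and was sequenced as poly(A)-selected libraries. The 4 cKO libraries came from Pkn2 fl/fl embryos carrying XMLC2-Cre, a driver active in cardiomyocytes from early development, and the 4 control libraries from Cre-negative Pkn2 fl/fl littermates, so both groups carried the floxed allele on a C57BL/6 background (C57BL/6N by the growth notes) and only the cKO group carried Cre. The other cells of the ventricle kept Pkn2, and no group held Cre without the floxed allele, so that effects of Cre and of the deletion cannot be told apart.

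In a thin filament, actin monomers form the backbone, tropomyosin lies along it, and a troponin complex is bound at regular intervals. Troponin C binds calcium, troponin I holds the filament in its relaxed state, and troponin T ties the complex to tropomyosin. Troponin I and troponin T each have cardiac, slow skeletal and fast skeletal forms made from separate genes. The embryonic heart is known to make slow skeletal troponin I (Tnni1), which cardiac troponin I (Tnni3) replaces around and after birth, and to make skeletal α-actin (Acta1) beside cardiac α-actin (Actc1).

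Depth ran from 47559845 to 56660938 counts per library (median 50884838). Pkn2 averaged 81.2 ± 3.07 CPM over the cKO libraries and 144 ± 9.85 CPM over the control libraries (SD, n = 4 per group), and the groups did not overlap. CPM values use TMM-scaled library sizes, except the summed levels of marker lists, which use total counts. The counts are per gene, and the reads of the deleted exon were not told apart from the rest of the transcript. All 10 cardiomyocyte markers outside the member list were detected, and their summed level was 25373 to 27392 CPM in cKO and 23986 to 26509.8 CPM in controls, so that the groups overlapped. The summed level of 10 endothelial and endocardial markers did not overlap, at 1774 to 2216 CPM in cKO and 1384 to 1658 CPM in controls, and 10 of the 10 were higher in cKO. The summed level of 8 macrophage markers was 6.37 to 30.8 CPM in cKO and 2.63 to 8.25 CPM in controls. In bulk tissue, fewer cells of a type and less RNA per cell cannot be told apart.

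Cardiac actin dominated the group. Levels between genes are compared in TPM, the length-scaled unit of the authors' second table. Over the 8 libraries, Actc1 was at 14608 ± 620.5 TPM (SD, n = 8), 3.15 times the level of Tpm1 at 4639.6 ± 183 TPM. The cardiac isoforms and the embryonic troponin I came next. Tnnt2 was at 3947 ± 157 TPM, Tnni1 at 2938 ± 183 TPM and Tnnc1 at 2677 ± 191 TPM. Tnni1 and Tnnc1 were the only neighbours in the order whose ranges over the 8 libraries overlapped, so that their order is not resolved. Tnni3 followed at 999 ± 38.9 TPM and Acta1 at 760.2 ± 93.6 TPM. The skeletal troponin T genes and fast skeletal troponin I were lowest, with Tnnt1 at 124 ± 10.8 TPM, Tnni2 at 45.9 ± 16.8 TPM and Tnnt3 at 13.0 ± 2.94 TPM. The 10 genes together held 3.03% ± 0.121 of all TPM in cKO and 3.12% ± 0.0905 in controls (SD, n = 4 each), with overlapping ranges.

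**Figure D1:**
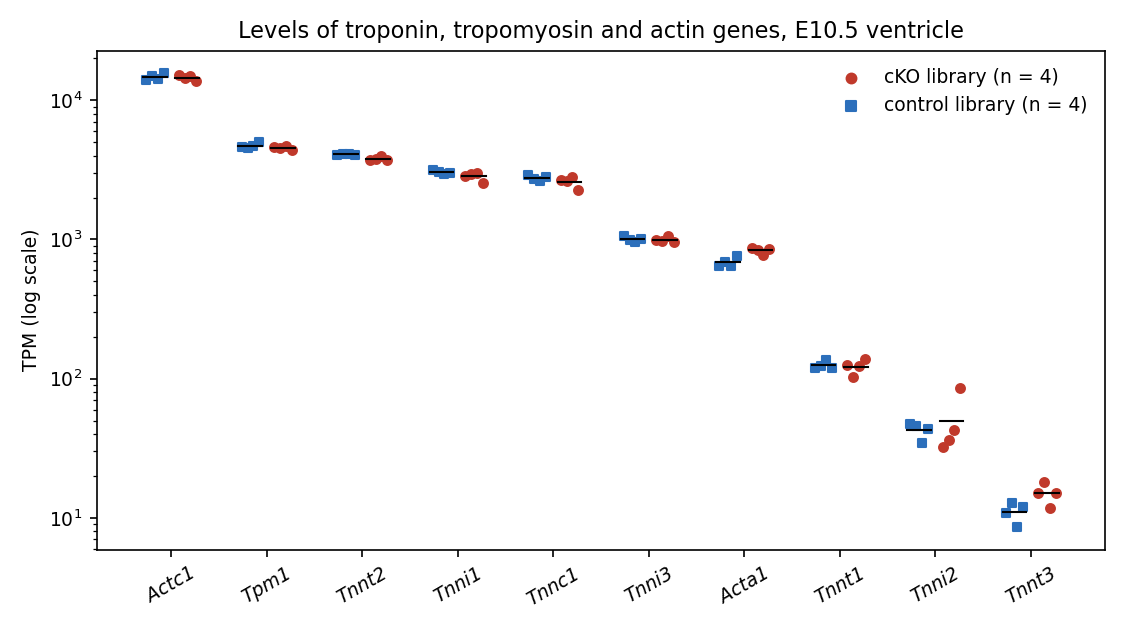
Level of each gene in TPM on a log axis, ordered by mean level, with 4 control libraries (blue squares) and 4 cKO libraries (red circles) per gene and the group means as black bars. The genes run from Tnnt3 at 13.0 TPM to Actc1 at 14608 TPM. Some neighbours in the order lie close together, and the ranges of Tnni1 and Tnnc1 overlap.

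Between genotypes, the thin filament genes differed little. None of the 10 passed an adjusted p of 0.05 in edgeR's quasi-likelihood test over 26820 genes, where 0.858% of all genes did. In the same fit, 3 members had an unadjusted p under 0.05 (Acta1, Tnnt3 and Tnni1), where 12.8% of all genes did. With the DESeq2 Wald test, 2 members passed (Acta1 and Tnnt3), where 3.23% of all genes did. The study used DESeq2 and also asked for a fold change of at least 1.5, which neither gene reached (log2 fold changes 0.26 and 0.44). With limma-voom, filterByExpr or a replicate block 0 passed, where 0.626%, 1.1% and 1.42% of all genes did. Of the 10 genes, 7 had a log2 fold change below 0, where 50.2% of all genes did. Their median was −0.052, against −0.029 over the 2200 genes with a mean of at least 100 CPM. The groups did not overlap in CPM for 1 of the 10 (Tnnt3), where 6.91% of all genes did not (3.14% with cKO above and 3.77% with cKO below), and in TPM for 2 (Acta1 and Tnnt2), where 5.94% did not. Which gene stood apart thus moved with the scale.

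**Figure D2:**
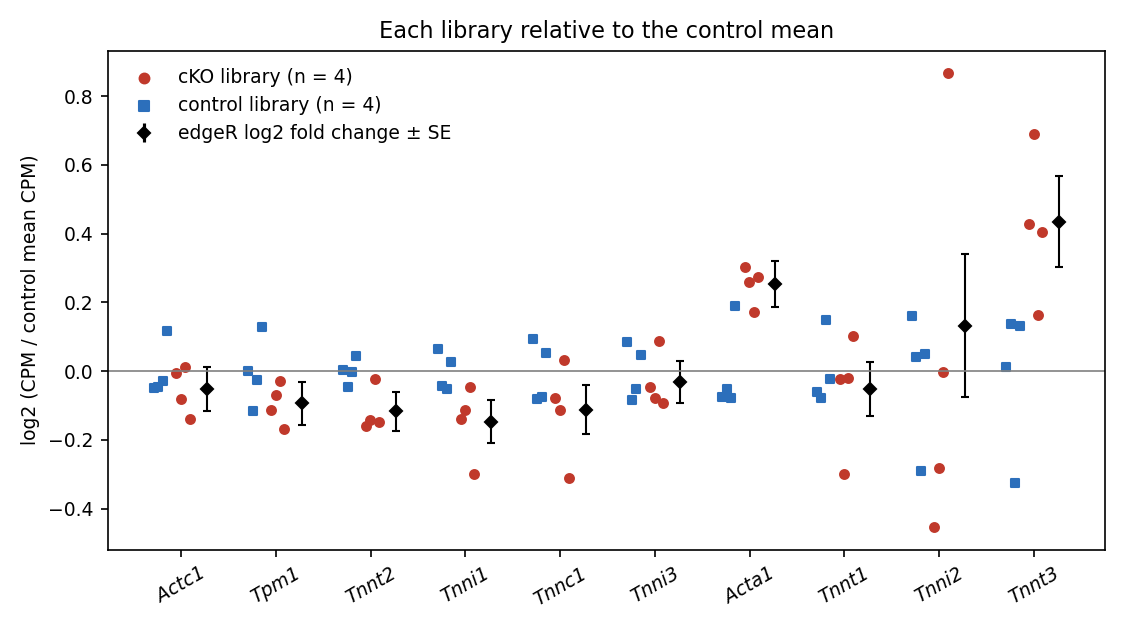
CPM of each library relative to the mean of the 4 control libraries, on the log2 scale, for cKO (red circles) and control (blue squares), with the edgeR log2 fold change and its standard error as black diamonds. Acta1 and Tnnt3 lie above 0, with fold changes of 0.25 and 0.43, and a single cKO library of Tnni2 sits far above the rest.

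Skeletal α-actin was the member with the lowest unadjusted p. Acta1 (ENSMUSG00000031972, chromosome 8, 123891769 to 123894751, minus strand of GRCm38) was at 692, 671, 631 and 678 CPM in cKO replicates 1 to 4 and 532, 540.1, 530.1 and 638 CPM in control replicates 1 to 4. All cKO libraries but replicate 3 were above every control library, and cKO replicate 3 lay just under control replicate 4, the highest control. Its change of 0.25 on the log2 scale (SE 0.0664, adjusted p = 0.0887) in edgeR's quasi-likelihood test did not pass the threshold. Without cKO replicate 3 the adjusted p was 0.0300, and without control replicate 4 it was 0.0396. In these fits 2.82% and 0.261% of all genes passed. The DESeq2 Wald test gave an adjusted p of 0.00502, and edgeR without a filter on low counts 0.0150. Over all alternatives the log2 fold change stayed between 0.23 and 0.32, with adjusted p from 0.00502 to 0.256.

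Cardiac α-actin overlapped between the groups. Actc1 (ENSMUSG00000068614, chromosome 2, 114047282 to 114052887, minus strand) was at 12265, 11644, 12425 and 11175 CPM in cKO replicates 1 to 4 and 11915, 11936, 12065 and 13355 CPM in control replicates 1 to 4. The groups overlapped, control replicate 4 was the highest library, and the edgeR test gave a change of −0.053 on the log2 scale (SE 0.0632, adjusted p = 0.812). Within each library the TPM of Acta1 divided by that of Actc1, which does not depend on the library size, was 0.0576, 0.0588, 0.0520 and 0.0625 in cKO and 0.0457, 0.0463, 0.0450 and 0.0489 in controls. Every cKO library was above every control library. As a share of both actins, Acta1 was 5.46% ± 0.389 in cKO and 4.44% ± 0.158 in controls (SD, n = 4 each). The ratio had a log2 difference of 0.31 (SE 0.0611, two-sided exact permutation p = 0.0286, adjusted over the 8 ratios 0.229). The raw p is the smallest that 4 libraries against 4 allow, and the ratio did not pass after adjustment. The difference was 0.31 with raw counts in place of TPM, and ran from 0.27 to 0.36 with each library left out in turn. The coding sequences of these actins and of smooth muscle actin are nearly identical, and how reads matching several of them were counted is not given in the sources used here. The endothelial marker level also differed between the groups, at 1774 to 2216 CPM in cKO against 1384 to 1658 CPM in controls. Its part in this ratio was not tested.

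The promoters of these actins are shown because, of the 8 members with a RefSeq promoter entry, they were the 2 that held a CArG box, the site of serum response factor, in the window from 250 bases before to 50 after the gene start. Tnnt3 and Tnni2 had no entry. A CArG box was in 1.63% of all 32851 promoter windows of the same length. The Acta1 match ran from base −73 to −64 of its RefSeq start (which lay 24 bases from the start in the authors' table) and the Actc1 match from −47 to −38. Acta1 also held CATTCC, the core of the MCAT box that TEAD factors bind, as did Tnnt2, Tnnc1 and Tpm1 on either strand, against 14.7% of all windows. TATAAA was found for Acta1, for Tnnt1 and, within the bases after its start, for Actc1, against 13.6% of all windows. CANNTG, the E-box, was in each of the 8 windows and in 72.3% of all windows. No MEF2 site was matched in the 8, against 3.19% of all windows. Only exact matches to each consensus were counted, so that sites with a mismatch would be missed. The RefSeq start of Tpm1 lay 193 bases from the start in the authors' table. Both strands were searched, and no match of one motif overlapped that of another in these windows. The 250 bases before the start follow, 5′ to 3′ on the gene's strand, from RefSeq on GRCm38.p6, with CArG box, CATTCC and TATAAA matches in capitals. Tnnt2, the main cardiac troponin T, is given beside them for its CATTCC match, from base −27 to −22.
Acta1 chr8:123894776-123895025, minus strand: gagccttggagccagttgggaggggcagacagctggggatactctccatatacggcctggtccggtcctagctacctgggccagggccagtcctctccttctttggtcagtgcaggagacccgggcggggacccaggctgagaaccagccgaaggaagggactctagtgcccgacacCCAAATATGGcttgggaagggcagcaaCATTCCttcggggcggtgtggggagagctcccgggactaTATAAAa
Actc1 chr2:114052876-114053125, minus strand: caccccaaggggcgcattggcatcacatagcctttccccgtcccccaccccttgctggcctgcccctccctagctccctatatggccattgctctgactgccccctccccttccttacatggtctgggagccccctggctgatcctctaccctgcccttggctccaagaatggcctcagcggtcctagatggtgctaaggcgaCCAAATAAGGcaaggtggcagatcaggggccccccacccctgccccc
Tnnt2 chr1:135836084-135836333, plus strand: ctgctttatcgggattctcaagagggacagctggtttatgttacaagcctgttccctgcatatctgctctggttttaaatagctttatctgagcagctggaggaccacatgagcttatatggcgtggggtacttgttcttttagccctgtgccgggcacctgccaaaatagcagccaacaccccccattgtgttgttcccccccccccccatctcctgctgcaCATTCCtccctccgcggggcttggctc

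**Figure D3:**
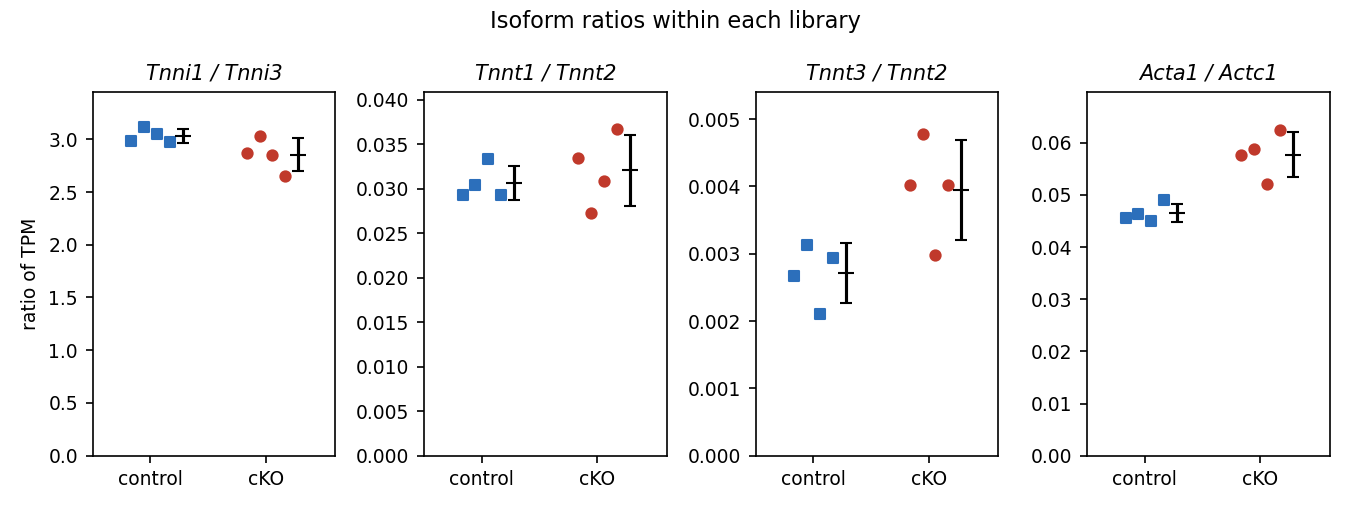
Ratio of TPM within each library for slow skeletal over cardiac troponin I, slow skeletal over cardiac troponin T, fast skeletal over cardiac troponin T, and skeletal over cardiac actin. Each point is 1 library and bars are mean ± SD (n = 4). Acta1 over Actc1 is the one panel where the groups do not overlap in TPM, at 0.0577 ± 0.00434 in cKO and 0.0465 ± 0.00173 in controls. With raw counts in place of TPM (not shown), Tnni1 over Tnni3 and Tnnt3 over Tnnt2 did not overlap either.

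Cardiac troponin T did not pass the adjusted threshold. Tnnt2 (ENSMUSG00000026414, chromosome 1, 135836354 to 135852260, plus strand) was at 2322, 2348, 2553 and 2343 CPM in cKO replicates 1 to 4 and 2599.8, 2512, 2590.4 and 2672 CPM in control replicates 1 to 4. In cKO, 3 libraries lay below every control library, and cKO replicate 3 lay among the controls. The edgeR test gave a change of −0.12 on the log2 scale (SE 0.0565, adjusted p = 0.406), which kept its sign in all 16 alternatives, from −0.15 to −0.097. In TPM the groups did not overlap, at 3815 ± 105 TPM in cKO and 4079 ± 10.2 TPM in controls (SD, n = 4 each), and limma on log2(TPM + 1) gave an adjusted p of 0.646. Tnnt2 made up 96.5% ± 0.358 of all troponin T TPM in cKO and 96.8% ± 0.147 in controls.

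The skeletal troponin T genes contributed the remainder. Fast skeletal Tnnt3 (ENSMUSG00000061723, chromosome 7, 142498836 to 142516008, plus strand) was at 9.50, 11.4, 7.90 and 9.35 CPM in cKO replicates 1 to 4 and 7.11, 7.76, 5.64 and 7.73 CPM in control replicates 1 to 4. Every cKO library was above every control library in CPM, although cKO replicate 3 exceeded the highest control by little, and the groups overlapped in TPM. The edgeR test gave a change of 0.43 on the log2 scale (SE 0.132, adjusted p = 0.140). The DESeq2 Wald test gave an adjusted p of 0.0310 and edgeR without a filter on low counts 0.0491, where 2.62% of all genes passed. Its level was low, at 0.381% ± 0.0717 of troponin T TPM in cKO and 0.263% ± 0.0435 in controls. Its ratio to Tnnt2 was 0.00403, 0.00478, 0.00298 and 0.00402 in cKO and 0.00267, 0.00314, 0.00211 and 0.00294 in controls, with a log2 difference of 0.53 (SE 0.188, two-sided exact permutation p = 0.0571, adjusted over the 8 ratios 0.229). With raw counts in place of TPM, the groups did not overlap for this ratio, although cKO replicate 3 was barely above control replicate 2. The log2 difference was then 0.55 (exact permutation p adjusted over the 8 ratios 0.0762). Slow skeletal Tnnt1 (ENSMUSG00000064179, chromosome 7, 4504570 to 4516004, minus strand) was at 74.0, 61.0, 74.0 and 80.7 CPM in cKO replicates 1 to 4 and 72.0, 71.1, 83.3 and 74.0 CPM in control replicates 1 to 4. The groups overlapped, and the edgeR test gave a change of −0.052 on the log2 scale (SE 0.0782, adjusted p = 0.861). Its sign changed when cKO replicate 2 or control replicate 3 was left out, to 0.030 and 0.0017.

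Skeletal muscle transcripts were looked for beside these genes. The myogenic factor genes Myod1, Myf5 and Myf6 and the muscle progenitor genes Pax3 and Pax7 were at 0 counts in all 8 libraries, and Myog, which marks differentiating skeletal muscle, had 4 counts over the 4 cKO libraries and 6 over the 4 controls. Of the list of 13 genes, 8 passed the filter on low counts, with a median log2 fold change of 0.62. None of them passed, and their directions differed. Summed over the 4 libraries of a group, Mylpf, a fast skeletal myosin light chain, had 6797 counts in cKO and 5796 in controls, Actn3 1952 and 1983, Ckm 583 and 298, and the embryonic myosin Myh3 16 and 49. Chrng, an acetylcholine receptor subunit of embryonic muscle, had 87, 47, 63 and 91 counts in cKO replicates 1 to 4 and 24, 44, 38 and 43 in control replicates 1 to 4, without overlap (log2 fold change 0.97, adjusted p = 0.108, edgeR), and its part in the Tnnt3 values was not tested. The summed level of the list was 41.0 to 56.0 CPM in cKO and 30.8 to 44.8 CPM in controls, so that the groups overlapped.

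Of the troponin I genes, the embryonic Tnni1 was below every control in 3 of the 4 cKO libraries, and the cardiac Tnni3 overlapped. Tnni1 (ENSMUSG00000026418, chromosome 1, 135799402 to 135810989, plus strand) was at 1649.7, 1681, 1762 and 1479 CPM in cKO replicates 1 to 4 and 1901, 1763, 1756 and 1854 CPM in control replicates 1 to 4. Replicate 3 of cKO lay among the controls, and cKO replicate 4 was the lowest library. The edgeR test gave a change of −0.15 on the log2 scale (SE 0.0631, adjusted p = 0.339), negative in all 16 alternatives. Tnni3 (ENSMUSG00000035458, chromosome 7, 4518305 to 4522528, minus strand) was at 492, 481, 540.5 and 476 CPM in cKO replicates 1 to 4 and 539, 479, 489.8 and 525 CPM in control replicates 1 to 4. The groups overlapped throughout, with a change of −0.031 on the log2 scale (SE 0.0609, adjusted p = 0.908) that turned to 0.0028 without control replicate 1. The ratio of Tnni1 to Tnni3 was 2.87, 3.03, 2.85 and 2.65 in cKO and 2.98, 3.11, 3.05 and 2.97 in controls. In TPM it was lowest in cKO replicate 4, and cKO replicate 2 lay among the controls. The ratio had a log2 difference of −0.088 (SE 0.0427, two-sided exact permutation p = 0.0857, adjusted over the 8 ratios 0.229), which did not pass. With raw counts in place of TPM, the groups were apart for this ratio, with cKO lower, although cKO replicate 2 was barely under control replicate 1. The log2 difference was then −0.12 (exact permutation p adjusted over the 8 ratios 0.0762), which did not pass either. Cardiac Tnni3 was 25.6% ± 0.883 of troponin I TPM in cKO and 24.6% ± 0.398 in controls, so that Tnni1 was the main troponin I RNA in both groups.

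Fast skeletal Tnni2 (ENSMUSG00000031097, chromosome 7, 142441808 to 142444410, plus strand) was set apart by 1 library. It was at 13.4, 15.1, 18.3 and 33.4 CPM in cKO replicates 1 to 4 and 20.5, 18.8, 15.0 and 19.0 CPM in control replicates 1 to 4. Replicate 4 of cKO was the highest of all libraries, and replicate 1 of cKO the lowest. The change of 0.13 on the log2 scale (SE 0.208, adjusted p = 0.869) turned to −0.23 without cKO replicate 4 (adjusted p = 0.494 from edgeR). Its ratio to Tnni1 was 0.0113, 0.0124, 0.0143 and 0.0335 in cKO and 0.0150, 0.0149, 0.0117 and 0.0144 in controls, with a log2 difference of 0.21 (SE 0.368, two-sided exact permutation p = 0.857, adjusted over the 8 ratios 0.857). Ckm, the muscle creatine kinase, was also highest in cKO replicate 4, at 260 counts, where the other libraries held 67 to 144. Mylpf and Actn3 of the same list did not follow. In that library Mylpf was at 1539 counts, the lowest of the cKO libraries, and Actn3 at 638, against 675 in control replicate 4. The summed level of the list was 45.2 CPM there, against 56.0 CPM in cKO replicate 2. Whether the Tnni2 and Ckm values share a source was not tested.

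Troponin C and tropomyosin were also within the replicate spread. Tnnc1 (ENSMUSG00000091898, chromosome 14, 31208312 to 31211729, plus strand), which encodes the only troponin C made in quantity by cardiomyocytes, was at 1056, 1031, 1140.1 and 899.7 CPM in cKO replicates 1 to 4 and 1190.1, 1055, 1059 and 1156 CPM in control replicates 1 to 4. Replicates 2 and 4 of cKO lay below every control, and cKO replicates 1 and 3 lay among the controls. The edgeR test gave a change of −0.11 on the log2 scale (SE 0.0719, adjusted p = 0.583). Tpm1 (ENSMUSG00000032366, chromosome 9, 67022590 to 67049406, minus strand) was at 2998, 3085, 3178 and 2880.2 CPM in cKO replicates 1 to 4 and 3242, 2988, 3184 and 3545 CPM in control replicates 1 to 4. The groups overlapped, with a change of −0.094 on the log2 scale (SE 0.0636, adjusted p = 0.609). Both genes kept a negative sign in all 16 alternatives. Tpm1 is spliced into muscle and nonmuscle forms, and Tnnt2 into embryonic and adult forms, which counts per gene do not separate.

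Ratios between different parts of the filament, and of slow skeletal to cardiac troponin T, overlapped between the groups in TPM. Tnnc1 over Tnnt2 was 0.681 ± 0.0511 in cKO and 0.675 ± 0.0305 in controls (TPM ratio, SD, n = 4 each), with a log2 difference of 0.0096 (SE 0.0650, two-sided exact permutation p = 0.857, adjusted over the 8 ratios 0.857). Tpm1 over Actc1 was 0.314 ± 0.00604 and 0.321 ± 0.0103, with a log2 difference of −0.033 (SE 0.0273, two-sided exact permutation p = 0.257, adjusted over the 8 ratios 0.411). Tnnt2 over Actc1 was 0.263 ± 0.0108 and 0.278 ± 0.0129, with a log2 difference of −0.077 (SE 0.0452, two-sided exact permutation p = 0.171, adjusted over the 8 ratios 0.343). Tnnt1 over Tnnt2 was 0.0321 ± 0.00397 and 0.0306 ± 0.00189, with a log2 difference of 0.060 (SE 0.10, two-sided exact permutation p = 0.543, adjusted over the 8 ratios 0.724). None of the 8 ratios passed after adjustment, in TPM or in raw counts (1 had an unadjusted p under 0.05 in TPM). With 4 libraries per group, none could pass unless most of the 8 were at the smallest p.

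To compare thin with thick filament RNA inside each library, the mean log2 CPM of 6 abundant thick filament genes (Myh6, Myh7, Myl3, Myl7, Mybpc3 and Ttn) was subtracted from each member. Myl2 and Myl4, which were also abundant and had log2 fold changes of −0.12 and −0.069, were not in it, and a reference with both added was tried after the data were seen. The reference of 6 genes was itself 0.043 higher in cKO on the log2 scale. Relative to it, the log2 level of Acta1 differed by 0.22 and that of Tnnt3 by 0.39 (cKO minus control), and for neither did the groups overlap (exact permutation test, two-sided, p = 0.0286 each, adjusted over the 10 genes 0.143). They were 2 of 10 genes without overlap, where 6.48% of all genes had none. Tnni1 and Tnnt2 differed by −0.19 and −0.16 (p = 0.0571 each by the same exact permutation test, adjusted 0.143). Tnnc1 differed by −0.16, Tpm1 by −0.13 and Tnnt1 by −0.099, with overlapping groups. Actc1 (−0.095), Tnni3 (−0.074) and Tnni2 (−0.0010) changed sign when 10 cardiomyocyte markers served as the reference. Those markers also hold Myh6, Myh7, Myl3, Myl7 and Ttn, so that this reference is not independent of the first. They hold Nkx2-5 too, with a log2 fold change of −0.32, and the mean log2 level of this reference was itself lower in cKO. With those markers Tnni1 was at −0.092, Tnnt2 at −0.061, Tnnc1 at −0.058, Tpm1 at −0.036 and Tnnt1 at −2.87e-05, while Acta1 was at 0.31 and Tnnt3 at 0.49. With Myl2 and Myl4 added to the 6 genes, Tnni1 was at −0.16, Tnnt2 at −0.13, Acta1 at 0.25 and Tnnt3 at 0.42, and Tnni2 again changed sign, to 0.033. The size of the negative differences thus moved with the reference, and none of the 10 genes passed after adjustment with any of these references. None could pass unless most of the 10 were at the smallest p of this test.

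**Figure D4:**
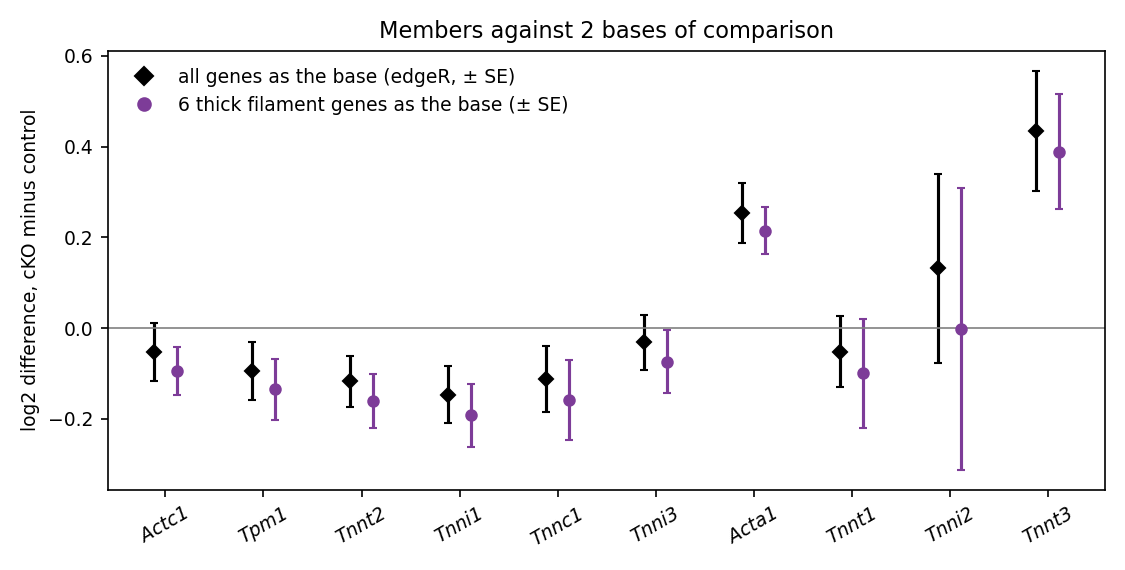
Log2 difference between cKO and control for each gene, against all genes (edgeR, black diamonds) and against 6 thick filament genes of the same library (purple circles), with standard errors. With either base, Acta1 and Tnnt3 lie above 0 and Tnnt2, Tnni1, Tnnc1, Tpm1, Actc1, Tnni3 and Tnnt1 below it.

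The troponin I and T genes lie in neighbouring pairs on the chromosomes. Tnni1 and Tnnt2 are 25364 bases apart on chromosome 1, Tnnt1 and Tnni3 2300 bases apart on chromosome 7, and Tnni2 and Tnnt3 54425 bases apart on chromosome 7 of GRCm38. Over the 8 libraries, log2 CPM of Tnni1 and Tnnt2 gave Pearson's r = 0.827 (exact permutation p = 0.00575, adjusted over the 3 pairs 0.0173) and Spearman's rho = 0.857 (exact permutation p = 0.0107, adjusted 0.0321). Without the 2 libraries farthest from the median of Tnni1 (cKO replicate 4 and control replicate 1), r was 0.960, and with each group centred on its own mean 0.616. Of 9849 genes outside the member list with a mean of at least 10 CPM, 6.86% followed Tnni1 at least as closely as Tnnt2 did. Members on other chromosomes did so as well or nearly. Tnni1 gave r = 0.949 with Tnnc1 (chromosome 14) and 0.782 with Tpm1 (chromosome 9). Tnnt2 gave 0.737 with Tnnc1 and 0.811 with Tpm1, so that the value is not particular to neighbouring genes. Tnnt1 and Tnni3 gave r = 0.0197 and rho = 0.0476 (exact permutation p = 0.993 and 0.935, adjusted 0.993 and 0.935), and r = −0.383 without the 2 farthest libraries. Tnni2 and Tnnt3 gave r = 0.0602 and rho = −0.214 (exact permutation p = 0.891 and 0.619, adjusted 0.993 and 0.929), and r = −0.141 without them. The points of each pair share their libraries and scaling.

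**Figure D5:**
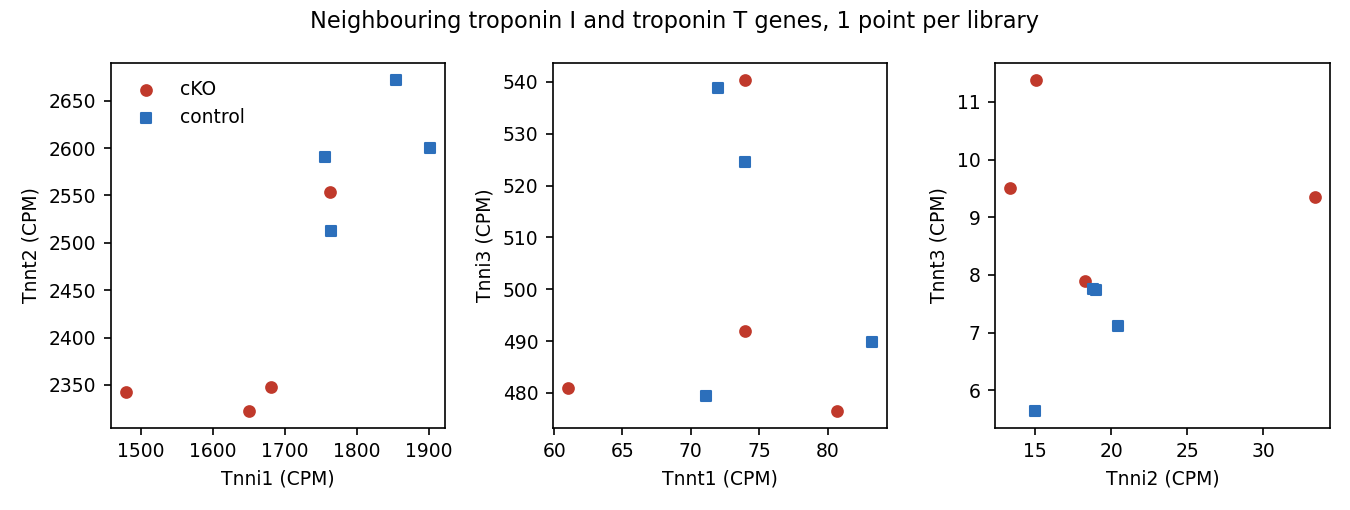
CPM of neighbouring troponin I and T genes, 1 point per library, cKO as red circles and control as blue squares, with axes that do not start at 0. Tnni1 and Tnnt2 rise together over the 8 libraries (r = 0.827), and the other pairs show no such order. Tnni1 followed Tnnc1, on another chromosome and not shown here, more closely (r = 0.949).

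The genes whose log2 CPM over the 8 libraries most resembled a member were ranked among 9849 genes, as a description. For Tnnt2 these were Bod1, Rab1b and Gyg (Pearson's r 0.979 to 0.989), for Tnni1 Cryab, Dnajc19 and Mrpl32 (0.983 to 0.987), and for Acta1 Xpnpep1, Zfp334 and Copa (0.967 to 0.993). The highest of 9849 values over 8 libraries are large by selection alone, and shared regulation was not tested.

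Other thin filament genes were read from a list of 23, which holds the remaining tropomyosins, the capping proteins of both filament ends, leiomodins, nebulin relatives, Xin repeat proteins and smooth muscle actins. Of its 22 tested genes, 11 had a log2 fold change above 0 and 11 below, with a median of −0.019, and 1 passed the threshold, where 0.858% of all genes did. That gene was Xirp2, which encodes an actin-binding Xin repeat protein of muscle. It was at 3.14, 2.18, 2.59 and 2.53 CPM in cKO replicates 1 to 4 and 1.02, 0.850, 1.31 and 0.982 CPM in control replicates 1 to 4. Every cKO library was above every control library (log2 fold change 1.32, SE 0.199, adjusted p = 0.00520, edgeR), at a level of a few CPM, and no gene of the list passed with limma on log2(TPM + 1), where 2 of all 26750 genes did. The 3 most abundant of the list were Acta2, the smooth muscle α-actin that early cardiomyocytes also make, the tropomyosin Tpm4, and Capzb, a subunit of the barbed-end cap. Acta2 was at 2485 ± 190.3 CPM in the cKO and 2775 ± 332 CPM in the control group (log2 fold change −0.16, SE 0.0804, adjusted p = 0.431), Tpm4 at 418 ± 12.5 CPM in the cKO and 399 ± 23.2 CPM in the control group (log2 fold change 0.068, SE 0.0571, adjusted p = 0.715) and Capzb at 339 ± 3.81 CPM in the cKO and 349 ± 19.2 CPM in the control group (log2 fold change −0.040, SE 0.0550, adjusted p = 0.846).

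Of 12 thick filament and M-band genes, 6 had a log2 fold change above 0 and 6 below, with a median of 0.014, and 1 passed, against the same 0.858% of all genes. Mybphl, a relative of the myosin-binding protein genes, was at 58.3, 54.1, 58.5 and 55.9 CPM in cKO and 38.6, 40.4, 36.4 and 41.1 CPM in controls, without overlap (log2 fold change 0.53, SE 0.0590, adjusted p = 0.000618, edgeR). The most abundant were the myosin light chain genes Myl2, Myl7 and Myl4. Myl2, the ventricular form, was at 4685 ± 342 CPM in the cKO and 5077 ± 317 CPM in the control group (log2 fold change −0.12, SE 0.0677, adjusted p = 0.528). Myl7 was at 2134 ± 109 CPM in the cKO and 2000.4 ± 123 CPM in the control group (log2 fold change 0.093, SE 0.0624, adjusted p = 0.603) and Myl4, the embryonic and atrial form, at 2573 ± 192 CPM in the cKO and 2699.9 ± 186 CPM in the control group (log2 fold change −0.069, SE 0.0685, adjusted p = 0.768).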

How the data were processed

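Ventricular RNA was sequenced by the authors in 4 cKO and 4 control libraries, whose methods name nf-core/rnaseq and GRCm39. The submitters' processing notes list Trim Galore 0.6.7, HISAT2 2.2.1, StringTie 2.2.1 and featureCounts, without roles. The deposited files hold raw counts, with 1 row per symbol, and TPM per Ensembl gene, scaled for length by the authors. The counting tool's strand setting is not given in the sources used here. Positions in the TPM table are GRCm38: of 37926 genes compared, 85.8% lay within 1000 bases of their start in GRCm38.p6 and 3.26% within that distance in GRCm39.

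The whole count table was tested with edgeR 4.0.16 (R 4.3.3; quasi-likelihood F test, TMM, condition only) on the 26820 genes with at least 8 counts in total, the study's filter, with Benjamini-Hochberg adjustment. A gene passed at an adjusted p of at most 0.05. The standard error (SE) is the log2 fold change divided by the square root of F. CPM values on the log2 scale use a prior count of 2. Ratios use TPM + 0.1 on the log2 scale, and exact permutation tests are two-sided over all groupings of 4 against 4 (scipy 1.17.1), with a smallest p of 0.0286. Alternatives were DESeq2 1.42.0, limma 3.58.1 (voom, and log2 TPM with pseudocounts of 1 and 0.1), other size factors and filters, a replicate block, other references and each library left out. Methods were tested on simulated data. Depth was 47559845 to 56660938 counts per library, and each pair of libraries within a group differed by more than sampling noise. The labels give each library as 1 replicate and do not say which embryos it came from or whether several were pooled, so that p-values measure the spread between libraries, which may be in part technical.

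The members and lists were chosen with earlier results of these data known. Named genes are the 10 members, the genes of each list past the threshold, its 3 most abundant genes, and the 3 genes most like Tnnt2, Tnni1 and Acta1. Further skeletal markers and Srf were named after their values were seen.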

Additional observations from a re-analysis of the deposited data

Results flagged for a closer look

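Dixon's test at the 95% level was applied to each gene's CPM and each log2 ratio in both groups of 4, 36 groups in all, where chance marks about 1 in 20. It marked 4. Tnnt2 in cKO replicate 3 was at 2553 CPM, above the other cKO libraries. Actc1 in control replicate 4 was at 13355 CPM and Acta1 in the same library at 638 CPM, both above the other controls. That library had the lowest TMM factor, 0.974, where the others had 0.997 to 1.01. The log2 ratio of Tnni2 to Tnni1 in control replicate 3 was −6.41, below the other controls.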

How the results depend on the processing

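Of 407 values recomputed under the alternatives, 364 kept their direction and their side of the threshold. With a library left out, the exact tests on ratios and on levels relative to the thick filament could not reach the threshold whatever the data. Nor could the ratio tests with the replicate block. For the values of these tests, which are among the 407, only the direction could change. The members passing were 2 with DESeq2 and 2 with no filter on low counts, and 0 to 1 with a library left out. The thin filament list gave 2 with no filter, 0 with limma on log2(TPM + 1) or log2(TPM + 0.1), and 1 to 3 with a library left out (3 without cKO replicate 3). Over all genes, 230 passed, against 867 (DESeq2), 878 (no filter), 2 and 5 (limma on log2 TPM, pseudocounts 1 and 0.1), 380 (replicate block), and 67 to 744 with a library left out (71 without cKO replicate 1, 744 without cKO replicate 3, and 67, 135, 87 and 69 without control replicates 1 to 4). Replicate numbers were not taken as pairs: correlations of same-numbered deviations over 14302 genes ran from −0.19 to 0.0056. The block changed no call among the members. The following values changed sign. With libraries left out, log2 fold changes ran from −0.10 to 0.030 for Tnnt1 (0.030 and 0.0017 where reversed), −0.23 to 0.29 for Tnni2 and −0.070 to 0.0028 for Tnni3. The log2 ratio differences ran from −0.016 to 0.065 for Tnnc1 over Tnnt2, −0.14 to 0.38 for Tnni2 over Tnni1 and −0.0075 to 0.13 for Tnnt1 over Tnnt2. Relative to the thick filament, Tnni2 ran from −0.28 to 0.18 and was 0.037 in TPM and 0.033 with Myl2 and Myl4 added to the reference (chosen after seeing the data); with cardiomyocyte markers as the reference, Tnni2 was 0.098, Tnni3 0.026 and Actc1 0.0044. The cause was not tested. The exact tests on 4 against 4 libraries have a smallest p of 0.0286, so that 1 ratio alone could not pass after adjustment over 8. Depth limits Tnnt3 most among the members, at 319 to 548 counts per library.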

Other observations

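Transcription factors known to act on sarcomere gene promoters and splicing factors of muscle transcripts were read from 2 further lists. Of 16 transcription factor genes, 5 had a log2 fold change above 0 and 11 below, with a median of −0.080, and 1 passed the threshold, where 0.858% of all genes did. Hand1, a factor of the left ventricle and outflow region, fell from 96.9 ± 4.10 to 69.9 ± 9.52 CPM, with every cKO library below every control library (log2 fold change −0.47, SE 0.0804, adjusted p = 0.0112, edgeR). The most abundant were Gata4, Nkx2-5 and Tead1. Nkx2-5 was at 97.0 ± 15.2 CPM in the cKO and 121 ± 4.25 CPM in the control group, without overlap, and did not pass (log2 fold change −0.32, SE 0.0893, adjusted p = 0.109). Gata4 was at 277 ± 16.9 CPM in the cKO and 282 ± 2.80 CPM in the control group (log2 fold change −0.026, SE 0.0561, adjusted p = 0.917) and Tead1 at 370.2 ± 27.2 CPM in the cKO and 393 ± 27.5 CPM in the control group (log2 fold change −0.086, SE 0.0671, adjusted p = 0.678). Srf, which encodes serum response factor, was at 108 ± 3.22 CPM in the cKO and 122 ± 6.66 CPM in the control group, without overlap. It did not pass (log2 fold change −0.18, SE 0.0555, adjusted p = 0.158, edgeR), and its part in the actin values was not tested.

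Of 13 splicing factor genes, 3 had a log2 fold change above 0 and 10 below, with a median of −0.065, and 1 passed, against the same share of all genes. Over all genes 50.2% were below 0, and of the 2200 with a mean of at least 100 CPM 1365 were. Ptbp2 fell from 97.4 ± 4.07 to 78.4 ± 7.87 CPM (log2 fold change −0.31, SE 0.0692, adjusted p = 0.0457, edgeR). The most abundant were Srsf2 (log2 fold change −0.17, SE 0.0561, adjusted p = 0.189), Srsf1 (log2 fold change −0.18, SE 0.0618, adjusted p = 0.218) and Ptbp1 (log2 fold change 0.14, SE 0.0623, adjusted p = 0.363), none of which passed. The spliced forms of Tnnt2 and Tpm1 were not measured by these counts.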
